A study of Mus musculus with 12 samples.

Results

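The comparison described here is between mouse embryonic stem cells that lack Mettl14 (KO) and wild-type cells (WT), both left unheated (noHS). It rests on 4 of the 12 ribosome profiling libraries of the series, 2 labelled KO noHS and 2 labelled WT noHS, chosen by their genotype and treatment labels. The other 8 libraries came from the same genotypes under heat shock (HS, 42 °C for 30 min) or after it (recovery, 1 h back at 37 °C). The WT and KO cells are labelled as the V6.5 line, and all were grown on gelatin with leukaemia inhibitory factor and inhibitors of GSK3 (CHIR99021) and MEK1 (PD0325901). The KO line carries Mettl14 -/- and came from an earlier study. How many KO clones were used is not given in the sources used here, so a difference between the genotypes and a difference between these lines cannot be told apart. The series' design calls the 2 libraries of a group biological replicates.

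Mettl14 is the partner of the methyltransferase Mettl3. Together they write N6-methyladenosine (m6A) into mRNA, and proteins that bind m6A can change how long an mRNA lasts and how well it is translated. In mouse embryonic stem cells this mark is known for shortening the life of mRNAs of the pluripotency network. Ribosome profiling reads short mRNA fragments covered by ribosomes, and a count therefore follows both the number of mRNA copies and the ribosomes on each copy. Levels of mRNA were not analysed here, and fewer ribosomes per copy cannot be told apart from fewer copies. In these bulk samples, fewer cells of a type and less RNA per cell cannot be told apart either. The unheated comparison asks how ribosome occupancy differs between the genotypes before any stress.

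The files list 61396 transcript IDs of the UCSC known gene style and pair none of them with a gene symbol, and 0 IDs matched the RefSeq gene table used here. Transcripts are therefore named by ID only. Neither the loss of Mettl14 nor the markers of stem cells were checked in the counts, no list of genes was examined, and no sequence is shown.

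The unheated libraries held 1434691 and 1956756 reads in the WT and 1874747 and 1967103 in the KO. Counts were taken on the transcript's own strand (sense counts) unless stated otherwise. Outside the 4 dominant transcripts described next, sense counts numbered 13196 and 33019 in the WT and 21286 and 30083 in the KO. A floor of 3 counts then corresponds to a share of 0.00909% to 0.0227% of these counts, which covers counting error only. KO libraries had a larger share of reads assigned to a transcript on either strand, 7.47% ± 1.26 against 4.69% ± 1.41 in the WT (SD, n = 2 each), and a smaller unmapped share, 39.7% ± 2.61 against 46.7% ± 2.73 (SD, n = 2 each). The genotypes did not overlap in either measure. An exact two-sided permutation test gave p = 0.333 for both, the smallest p that 2 libraries against 2 allow, with an adjusted p = 0.556 over 10 library measures. The assigned reads include those on the 4 dominant transcripts. Of 53017 and 111371 assigned reads in the WT, 19430 and 36987 lay outside these 4. In the KO, 27261 and 32320 of 123345 and 164589 did, between the WT values. The larger assigned share is therefore not a difference apart from the dominant transcripts. These differences in library make-up moved with genotype, and their part in the results below was not tested.

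A few transcripts took most of the sense counts, and together they took more in the KO. Together, uc009vev.1, uc009vew.1, uc012hdk.1 and uc008spx.1 held 92.4% ± 0.127 of all sense counts in KO noHS and 86.7% ± 0.514 in WT noHS (SD, n = 2 each), with no overlap (exact permutation p = 0.333, the smallest possible). The largest, uc009vew.1, had 54711 and 110546 sense counts in the WT and 161405 and 226785 in the KO. Next, uc009vev.1 had 31376 and 59521 in the WT and 84237 and 118897 in the KO. For uc008spx.1 the counts were 1136 and 4781 in the WT and 7574 and 8648 in the KO. Each of these had more counts in both KO libraries than in either WT library. As a share of all sense counts, uc009vev.1 overlapped between the genotypes, at 30.7% and 24.6% in the WT and 29.5% and 30.2% in the KO. On that scale uc009vew.1 and uc008spx.1 did not overlap, and uc012hdk.1 had a lower mean in the KO (3.02% against 8.04%). After TMM scaling, the log2 fold change KO over WT was 1.96 ± 0.64 (SE) for uc009vew.1. It was 1.87 ± 0.69 for uc009vev.1 and 2.36 ± 0.88 for uc008spx.1. None of these transcripts passed edgeR's quasi-likelihood test (adjusted p = 0.315 for each). All passed the DESeq2 Wald test, with adjusted p-values of 0.0403, 0.0492 and 0.012 in that order. With library size alone, taken without the dominant transcripts, the log2 fold changes were smaller. They were 1.01 for uc009vew.1, 0.92 for uc009vev.1 and 1.48 for uc008spx.1, so the sizes depended on scaling.

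The fourth, uc012hdk.1, behaved otherwise, with 1897 and 34489 sense counts in the WT and 10655 and 9088 in the KO. The WT libraries enclosed the KO libraries, and the log2 fold change was 0.22 ± 1.01 (SE, edgeR adjusted p = 0.917). Its sense counts equalled the antisense counts of uc009vew.1 almost exactly, with 1905 and 34549 antisense counts of uc009vew.1 in the WT and 10725 and 9165 in the KO. Likewise, the sense counts of uc009vew.1 were 0.991 to 0.996 times the antisense counts of uc012hdk.1 in the 4 libraries. When reads on either strand were counted, uc009vew.1 kept 92 to 883 counts and uc012hdk.1 kept 563 to 1772. Summed over the pair, either-strand counts were 0.777% to 1.16% of its sense counts. Whether the mirrored counts are the same reads over overlapping transcripts was not tested. WT noHS replicate 2 thus stood apart in the opposite strand of this pair, and scaling left all 4 transcripts out.

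**Figure D1:**
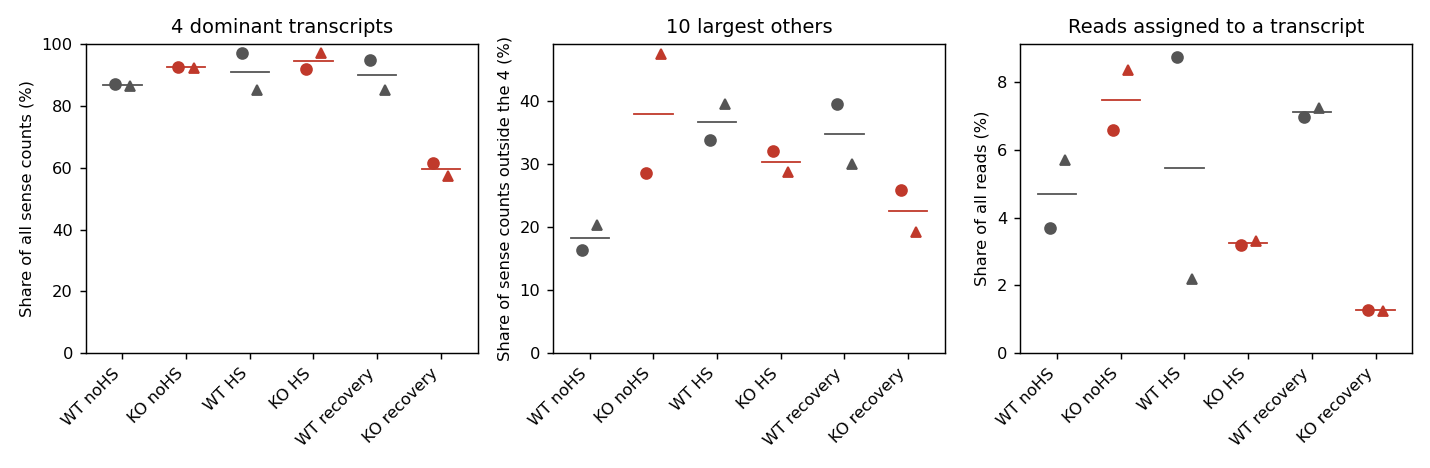
Left, share of all sense counts on the 4 dominant transcripts (%); middle, share of the remaining sense counts on the 10 largest other transcripts of each library (%); right, share of reads assigned on either strand (%). Circles are replicate 1, triangles replicate 2, lines the mean of the 2 libraries, grey WT and red KO. In the unheated groups both KO libraries lie above both WT libraries in each panel, and in recovery both lie below. The right panel includes the reads on the 4 dominant transcripts.

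Outside the 4, counts were also more concentrated in the unheated KO libraries. The 10 largest transcripts of a library held 28.6% and 47.5% of these counts in the KO and 16.4% and 20.3% in the WT. The genotypes did not overlap (exact permutation p = 0.333, adjusted p = 0.556), but KO noHS replicate 2 stood far above replicate 1. In that library 3 transcripts held 31.9% of the counts, against 7.80% and 12.0% in the WT libraries and 9.83% in KO noHS replicate 1. One of them, uc029six.1, singled out after its values were seen, had 336 and 1439 counts in the WT and 603 and 4134 in the KO. Its groups overlapped as shares of the library, at 2.55% and 4.36% in the WT and 2.83% and 13.7% in the KO. The others of those 3 were uc009vfc.1 (2.39% and 3.32% in the WT, 4.35% and 10.3% in the KO) and uc009vey.1 (2.86% and 4.29%, 2.64% and 7.78%). Among the 10 largest transcripts of each library, 5 were shared by all 4 libraries and 16 occurred in at least 1. The 5 were uc029six.1, uc009vfc.1, uc009vey.1, uc009vex.2 and uc012hdm.1. All but uc029six.1 have IDs close to those of uc009vev.1, uc009vew.1 and uc012hdk.1. Whether this concentration is separate from that on the 4 was not tested.

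At a fixed depth of 13000 sense counts, 3181 and 3088 different transcripts were detected in the WT and 3150 and 2369 in the KO. KO noHS replicate 1 lay between the WT libraries, so the lower KO mean of 2760 ± 553 against 3135 ± 65.9 (SD, n = 2 each) rested on replicate 2. The exact permutation p was 0.667, and without KO noHS replicate 2 the difference KO minus WT turned from −374.8 to 15.9 transcripts. The sense share of stranded counts outside the 4 was 69.3% and 68.4% in the KO, inside the WT values of 62.6% and 77.9% (exact permutation p = 1). The sign of that difference depended on the WT library: KO minus WT was −1.35 percentage points with both, −8.98 without WT noHS replicate 1 and 6.28 without WT noHS replicate 2.

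Transcripts seen in only 1 genotype were about as many on either side and had low counts. Sense counts were seen for 7760 transcripts in at least 1 of the 4 libraries and for 1347 in all 4. Both KO libraries and neither WT library held 242 transcripts, and both WT libraries and neither KO library held 239. With at least 3 counts in each library of the genotype, these numbers were 7 and 12, and with at least 5 they were 0 and 0. Pooled totals were similar, 46215 counts in the WT and 51369 in the KO.

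Transcript by transcript, no difference between the genotypes passed the threshold. Of 364 transcripts with enough sense counts to test, edgeR's quasi-likelihood test called 0 at an adjusted p below 0.05 (0% called), and the smallest adjusted p was 0.209. Without adjustment, 56 had a p below 0.05 (15.4% called), 34 with higher values in the KO (9.34% called) and 22 with lower values (6.04% called), where 18.2 would be 5% of 364. The DESeq2 Wald test on the same counts called 23 (6.32% called), all higher in the KO, with a median log2 fold change of 2.43. Its independent filter gave an adjusted p to only 117 of the 364. Of these 23, 17 were among the 34. Of the 364, 352 had at least 80% of their stranded counts on the sense strand.

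Typical differences between libraries of different genotype were somewhat larger than between replicates. Over the 364 transcripts the median absolute log2 ratio between libraries was 0.587 within the WT and 0.756 within the KO, against 0.856 to 1.14 for the 4 pairs of a KO and a WT library. Spearman correlations were 0.583 within the WT and 0.676 within the KO, and 0.371 to 0.535 across genotypes. These describe transcripts of the same libraries and carry no p. The groups did not overlap for 205 transcripts (56.3% of those tested), 95 higher in the KO (26.1%) and 110 lower (30.2%). With 2 libraries against 2, a proportion of 0.333 of all orderings has no overlap, so this is not a count of transcripts that differ. The biological coefficient of variation was 46.9% among the unheated libraries and 68.7% over all 12. In the fit of all 12 libraries, 0 of 295 transcripts were called (0% called), 11 had an unadjusted p below 0.05 and the smallest adjusted p was 0.773.

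The spread of fold changes was wide and its centre depended on scaling. After TMM scaling, the middle 50% of log2 fold changes lay between −0.73 and 1.01 with a median of 0.11, and 92 transcripts were above 1 and 66 below −1. TMM factors were 1.42 and 1.30 in the WT and 0.98 and 0.55 in the KO, so KO noHS replicate 2, with its 3 large transcripts, was scaled up most. With library size alone, the median was −0.77 and the 83 transcripts at an unadjusted p below 0.05 split into 12 higher and 71 lower. With scaling to all reads in the file, the median was also −0.77 and the split was 8 higher and 65 lower. DESeq2's size factors put into edgeR gave 38 higher and 21 lower. The balance of higher and lower values thus turned with the scaling. Under each of these scalings edgeR called 0 transcripts.

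**Figure D2:**
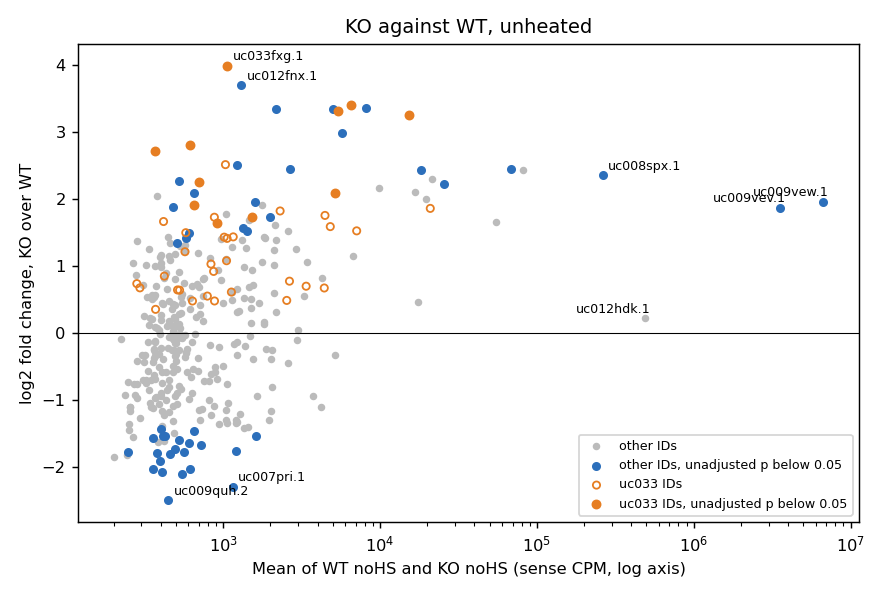
Each point is 1 of the 364 tested transcripts. The horizontal axis is the mean of WT noHS and KO noHS in sense CPM (log axis), and the vertical axis is the log2 fold change KO over WT from edgeR. Filled blue and orange points had an unadjusted p below 0.05, and orange marks IDs that start with uc033, all above 0. The 4 dominant transcripts lie at the right.

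Fold changes were also described by the mean CPM over both genotypes. That mean holds the KO value itself, so a transcript can reach the highest group through the KO alone, and the pattern is partly built in. Among the 121 with the highest mean CPM, the median log2 fold change was 0.82 and 23 were higher in the KO and 3 lower at an unadjusted p below 0.05. Among the 122 with the lowest mean CPM, it was −0.36, with 1 higher and 11 lower.

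The clearest individual difference was at uc012fnx.1, which had 2 and 10 sense counts in the WT and 40 and 49 in the KO. Scaled to CPM (counts per 1000000 counts outside the 4, after TMM), this was 107 and 233 in the WT and 1916 and 2942 in the KO. Both KO libraries were far above both WT libraries. No overlap and a small unadjusted p were conditions for naming uc012fnx.1, uc033fxg.1, uc009quh.2 and uc007pri.1, so neither adds support. For uc012fnx.1 the log2 fold change was 3.70 ± 0.77 (SE, edgeR adjusted p = 0.209). It passed the threshold in 7 of 16 alternative settings, among them the DESeq2 Wald test (adjusted p = 0.00121) and the either-strand counts (edgeR adjusted p = 0.0137). Its log2 fold change ranged from 2.75 to 4.39 over these settings, and its adjusted p from 0.00121 to 0.773.

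The other leading transcript, uc033fxg.1, had 1 and 7 sense counts in the WT and 25 and 47 in the KO. In CPM, these were 53.4 and 163 in the WT and 1197 and 2822 in the KO. The log2 fold change was 3.99 ± 0.85 (SE, edgeR adjusted p = 0.209). It passed in 7 of 16 alternatives too, with adjusted p-values from 0.00145 to 0.773 and log2 fold changes from 3.01 to 5.04. From pooled counts the ratio KO over WT was 14.8 (95% Clopper-Pearson interval 7.11 to 35.5, counting error only), and for uc012fnx.1 it was 12.2 (6.63 to 24.4). These intervals do not allow for the choice of the transcripts by a small p. For neither transcript was a read counted on the antisense strand in any of the 12 libraries, so the either-strand counts were the same reads. With either-strand counts, edgeR called 3 of 416 transcripts (0.721% called), all higher in the KO. These were uc012fnx.1, uc033fxg.1 and uc007qyr.2, the last named after its values were seen. It had 1 and 2 either-strand counts in the WT and 14 and 14 in the KO (edgeR adjusted p = 0.0169), all of them antisense to the transcript, so its sense count was 0 in each library.

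On the other side, uc009quh.2 had 11 and 40 sense counts in the WT and 3 and 2 in the KO. This was 588 and 933 CPM in the WT and 144 and 120 CPM in the KO. The log2 fold change was −2.50 ± 0.67 (SE, edgeR adjusted p = 0.282), and the pooled ratio WT over KO was 6.22 (counting interval 2.50 to 20.0). For uc007pri.1 the counts were 39 and 76 in the WT and 12 and 3 in the KO, which is 2083 and 1773 CPM in the WT and 575 and 180 in the KO. Its log2 fold change was −2.30 ± 0.76 (SE, edgeR adjusted p = 0.315). Neither passed the threshold in any alternative that gave it an adjusted p, and both kept a negative sign in all of theirs.

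The 34 transcripts with higher KO values held 5.57% and 9.08% of the counts outside the 4 in the WT and 19.7% and 24.1% in the KO. The 22 with lower KO values held 2.91% and 2.60% in the WT and 0.681% and 0.249% in the KO. These shares describe transcripts chosen by the same contrast and support nothing. The 34 had a median of 64 and 51 counts in the KO libraries. The 22 were thinly counted, with medians of 6.5 and 2.5 counts in the KO and 13 and 37 in the WT.

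Fold changes were described by the block of IDs a transcript belongs to. The pattern was noticed in these results, and no difference between blocks was tested. The first 5 characters of an ID are called its start here. All 41 tested transcripts whose ID starts with uc033 had a positive log2 fold change after TMM scaling, from 0.35 to 3.99, with a median of 1.43 against 0.11 over all 364. At an unadjusted p below 0.05, 11 of these 41 (26.8%) were higher in the KO and 0 lower, against 9.34% and 6.04% of all tested transcripts, and none passed after adjustment. KO and WT did not overlap for 24 of the 41, all with the KO higher, which is 58.5% against 26.1% of all tested transcripts. Of the 27 tested IDs that start with uc012, 8 (29.6%) were higher at that p and 1 lower, with a median of 1.15. The genotypes did not overlap for 15 of them with the KO higher and 2 with the KO lower. Of the 8 that start with uc011, 2 (25%) were higher and 0 lower, with a median of 1.09. Shares like those of uc033 were thus not particular to that block. Of the 115 that start with uc007, 2 were higher and 9 lower, the latter a share near that of all tested transcripts, with a median of −0.31.

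How many of the uc033 block were positive depended on scaling, while its median stayed above that of all tested transcripts. With library size alone, 27 of the 41 were positive and 14 negative, with a median of 0.39 where all 364 had −0.77. The median of the 41 exceeded that of all 364 by 1.32 with TMM, 1.15 with library size alone and 1.24 with scaling to all reads. Without KO noHS replicate 2 the median of the block was 0.79, with 33 positive and 10 negative of 43 tested.

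**Figure D3:**
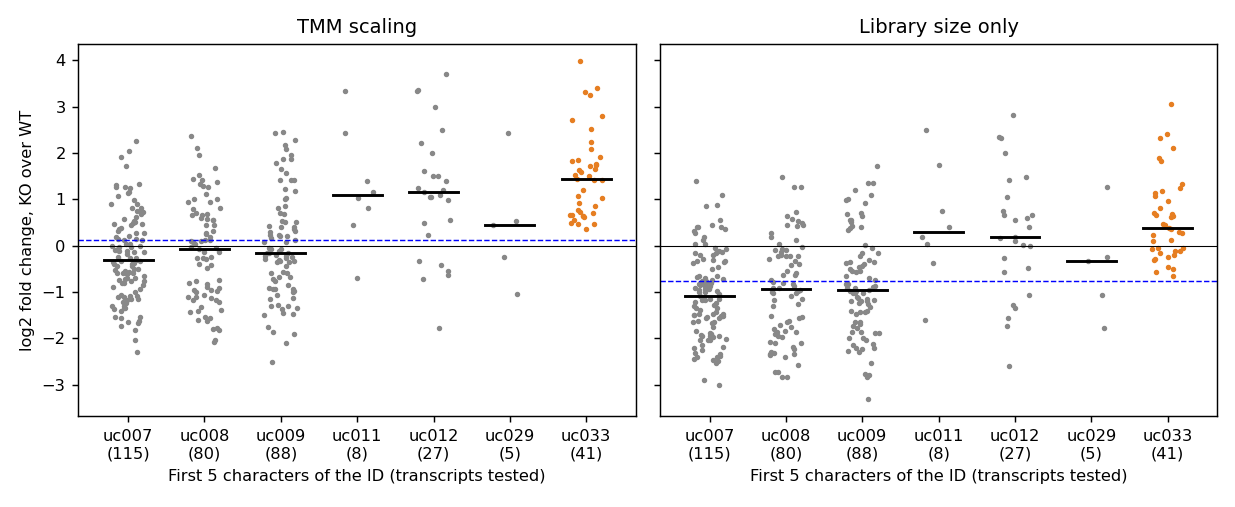
Log2 fold change KO over WT of each tested transcript, by the start of its ID (number tested in brackets), with TMM scaling at the left and with library size alone at the right. Black bars are the medians of each block and the dashed blue line is the median of all 364. The uc033 block (orange) has medians of 1.43 and 0.39, above the overall medians of 0.11 and −0.77.

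Sums over every ID of a block, with no filter on counts, gave the shares of each library. For uc033 they are mostly the reads of the 41 tested transcripts, 854 of 969 and 2076 of 2358 in the WT and 1956 of 2159 and 3956 of 4338 in the KO, so they restate the pattern and add no support. The 3061 IDs that start with uc033 held 7.34% and 7.14% of the sense counts outside the 4 in the WT and 10.1% and 14.4% in the KO. The 4781 IDs that start with uc012 held 11.1% ± 0.773 in the KO against 6.22% ± 1.66 in the WT (SD, n = 2 each). The 16404 that start with uc007 went the other way, with 31.8% and 28.5% in the WT and 24.6% and 14.0% in the KO. In each of these 3 blocks the genotypes did not overlap. Per 1000000 reads of the file, the uc007 block had 2925 and 4814 counts in the WT and 2795 and 2136 in the KO, still without overlap. The uc033 block had 675 and 1205 in the WT and 1152 and 2205 in the KO, and on that scale its groups overlapped. The uc033 shares also varied widely under heat, from 9.40% to 36.1% in WT HS and from 9.81% to 14.7% in KO HS. What the IDs of a block have in common as genes was not examined, since none could be named.

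The unheated differences were set beside those of heated cells, whose libraries are separate. In 1 fit of the 12 libraries, the test of whether KO against WT differed between unheated and heat-shocked cells called 0 of 295 transcripts (0% called). Of these, 18 had an unadjusted p below 0.05. DESeq2 called 2. Of the 34 transcripts with higher KO values when unheated, 30 were measured in this fit, and in HS their KO over WT change was positive for 15 and negative for 15 (median log2 0.02). Of the 22 with lower KO values, 13 were in this fit, with 7 positive and 5 negative in HS. Over all 295 transcripts, 162 were positive and 130 negative in HS. In recovery, 5 of the 30 were positive and 25 negative (median −3.85), and 0 of the 13 were positive and 13 negative (median −5.42). Over all 295 transcripts, 79 were positive and 216 negative in recovery (median −1.97). In total the 22 held 35 and 29 counts in WT HS and 38 and 8 in KO HS. They held 28 and 343 in WT recovery and 9 and 4 in KO recovery. The signs and the median of the 13 thus rest on very few counts. Across transcripts, the unheated and HS differences had a Pearson correlation of −0.10 and a Spearman correlation of −0.08, a description over transcripts of libraries that are not shared.

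Counts of the leading transcripts in HS were low. There, uc012fnx.1 had 10 and 0 sense counts in the WT and 23 and 1 in the KO, and uc033fxg.1 had 5 and 1 in the WT and 3 and 0 in the KO. For both, the groups overlapped in HS. For uc009quh.2, HS counts were 0 and 2 in the WT and 1 and 0 in the KO, and uc007pri.1 had none in any of the 4 HS libraries. With so few counts, a difference between the genotypes in HS could not be assessed for uc009quh.2 and uc007pri.1, and no detection limit was computed. Sense counts outside the 4 were 12783 and 5090 in WT HS and 12568 and 3874 in KO HS. In WT noHS replicate 1 they were 13196, so depth was similar in the replicate 1 libraries of HS.

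The genotype difference was also set against that in recovery. The difference KO against WT was more positive in unheated cells than in recovery for 41 of 295 transcripts and more negative for 0 (edgeR, adjusted p below 0.05, 13.9% called), with a median of 1.88 over all 295. For the 41, the median log2 fold change KO over WT was 1.42 when unheated, with 38 positive, and −6.30 in recovery, with 0 positive. These signs follow in part from how the 41 were chosen. Over all 295, 131 were positive when unheated and 79 in recovery, with a recovery median of −1.97. In the KO recovery libraries, 12 and 28 of the 41 had no count, so the fitted recovery values depend on the prior count and are no bound. For uc012fnx.1, recovery counts were 15 and 32 in the WT and 4 and 0 in the KO (edgeR adjusted p = 0.0204 for the difference). For uc033fxg.1 they were 13 and 7 in the WT and 4 and 0 in the KO (edgeR adjusted p = 0.0273). As a share of counts outside the 4, uc033fxg.1 in KO recovery replicate 1 (0.0486%) lay between the WT recovery libraries (0.0911% and 0.0281%), and its KO against WT difference in recovery did not pass (edgeR adjusted p = 0.116). Over the alternative settings, the difference between unheated and recovery passed in 8 of 24 for uc012fnx.1 (adjusted p from 0.0039 to 0.281) and in 4 of 23 for uc033fxg.1 (0.0112 to 0.68). The KO recovery libraries had 8230 and 2758 sense counts outside the 4 and an assigned share of 1.26% ± 0.00324 (SD, n = 2). The part of this in the difference was not tested. With the 4 dominant transcripts kept in scaling, 57 of 537 were called, and with only unheated and recovery libraries fitted, 55 of 344. The count of 41 fell to 0 when edgeR took DESeq2's size factors, and was 19 with library size alone (15 more positive, 4 more negative, with a median of −0.31 over all 295) and 11 with scaling to all reads. It was 0 without WT noHS replicate 1, WT recovery replicate 1 or WT recovery replicate 2, 7 without KO recovery replicate 2, and 15 without WT noHS replicate 2. It was 24 and 19 without KO noHS replicate 1 and 2, 26 without either WT HS library, 19 and 18 without KO HS replicate 1 and 2, and 26 without KO recovery replicate 1.

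**Figure D4:**
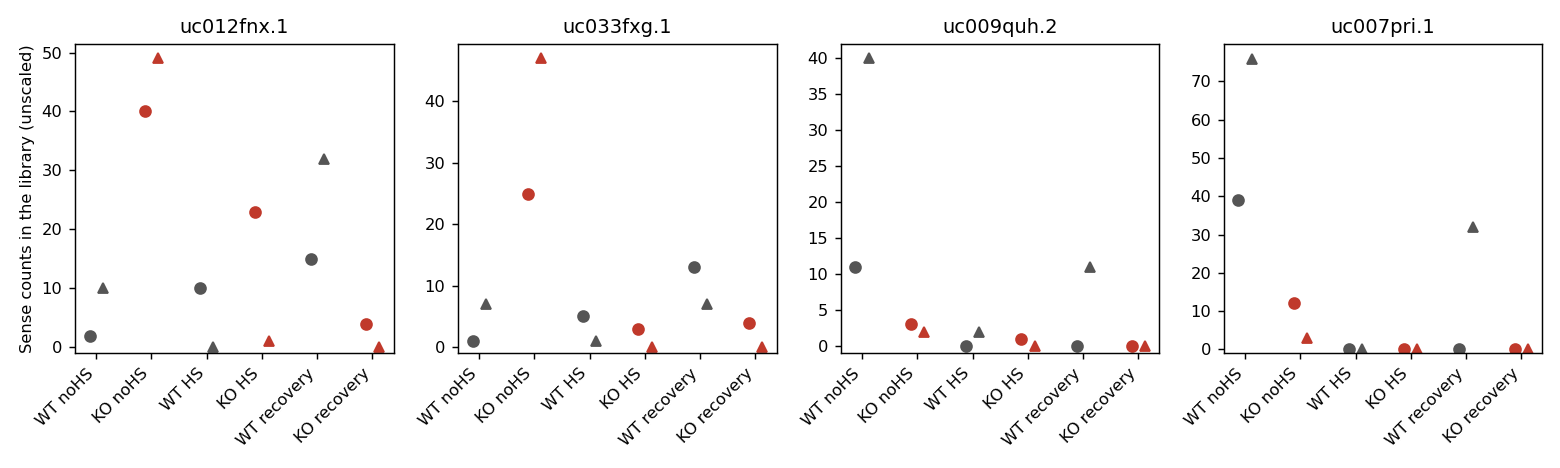
Unscaled sense counts of the 2 leading transcripts on each side of the unheated comparison in all 12 libraries. Circles are replicate 1, triangles replicate 2, grey WT and red KO. In unheated cells uc012fnx.1 and uc033fxg.1 are above WT in both KO libraries, and uc009quh.2 and uc007pri.1 below, while the heat shock libraries hold few counts of most of them.

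Likeness to other transcripts was measured for the named ones. Across log2 CPM in the 12 libraries, 29 of 294 other transcripts correlated with uc007pri.1 above 0.9, and 10 did so with uc009quh.2. For uc012fnx.1 there were 2 and for uc033fxg.1 there were 0. Libraries share depth and scaling in these correlations, which are a description.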

How the data were processed

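The authors deposited raw counts per transcript, 1 table per library, in the layout of STAR's gene counts (either strand, sense, antisense), per the file layout. The submitters' processing notes name STAR, DESeq2 and mm10 without versions or roles. Read trimming and the annotation release: not given in the sources used here. Reads in the ambiguous class count for no transcript. Ambiguous reads were 5.73% to 13.5% of the 4 unheated files and multimapping reads 26.1% to 27.8%; the 4 classes of unassigned reads stayed out of library sizes and tests.

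Sense counts of the 4 unheated libraries were kept by filterByExpr (edgeR 4.0.16, R 4.3.3, minimum count 10) and entered edgeR's quasi-likelihood test, with 2 residual degrees of freedom and Benjamini-Hochberg adjustment. Library sizes and TMM factors were computed without uc009vev.1, uc009vew.1, uc012hdk.1 and uc008spx.1, which stayed in the fit. Differences between conditions used 1 fit of 12 libraries with 6 residual degrees of freedom. DESeq2 1.42.0, other scalings, filters, the either-strand column, a replicate block and leaving out each library were alternatives. Standard errors are the size of the log2 fold change over the square root of F.

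Besides these 4, named transcripts were 2 per direction with a mean of at least 10 CPM and no overlap between genotypes: the largest change among those called or, with none called, the smallest unadjusted p. Those not called are given as values. Lists of genes and markers fixed with the design could not be applied without symbols. The members, lists and tests were chosen with earlier results of these data known. The source does not say whether replicates were separate cultures, so p-values measure only the spread between these libraries.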

Additional observations from a re-analysis of the deposited data

Results flagged for a closer look

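The test of whether the genotype difference differed between unheated cells and recovery called 41 transcripts when all 12 libraries were fitted after TMM scaling, and 0 with DESeq2's size factors or without WT noHS replicate 1, WT recovery replicate 1 or WT recovery replicate 2. Among the named transcripts, KO over WT was more positive when unheated than in recovery by 6.23 (log2) for uc009vev.1, 6.61 for uc009vew.1, 7.19 for uc008spx.1, 6.90 for uc012fnx.1 and 5.99 for uc033fxg.1 (edgeR adjusted p-values of 0.0109, 0.00892, 0.00595, 0.0204 and 0.0273). These sizes depend on scaling: with library size alone they were 4.05, 4.40, 5.06, 4.69 and 3.94, and only uc008spx.1 passed (edgeR adjusted p = 0.0199). The sign was positive in each alternative that gave a value, 24 for each of the first 4 and 23 for uc033fxg.1. In that order, they passed in 10, 11, 18, 8 and 4 of these.

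Library measures also pointed in opposite directions between conditions, with no overlap between the genotypes in either, and these differences were not tested. In recovery, KO minus WT was −5.85 percentage points for the assigned share of reads, −30.3 for the share of sense counts on the 4 dominant transcripts, −8.59 for the ambiguous share and 10.5 for the unmapped share, each opposite in sign to unheated cells. For the share of the 10 largest other transcripts it was −12.2 in recovery and −6.29 in HS, against 19.7 when unheated.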

How the results depend on the processing

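The count of 0 unheated transcripts called by edgeR became 23 in the DESeq2 Wald test and 6 of 7764 with no filter on low counts. It was 2 of 168 with a minimum count of 20, 3 with either-strand counts and 3 with the replicate block. All these calls were higher in the KO. A further alternative kept transcripts with at least 20 stranded counts under heat shock or in recovery, at least 80% of them sense. That choice used no unheated counts and is no check of strand use in unheated cells. There the count was 2 of 240, each higher in the KO. It was 0 to 2 when 1 library was left out, with 2 without WT noHS replicate 1 and 2 without KO noHS replicate 2. The 56 at an unadjusted p below 0.05 became 187 with no filter and 11 with all 12 libraries in the fit, and ran from 37 without WT noHS replicate 2 to 96 without KO noHS replicate 1. The 56 came from 364 tested transcripts, the 187 from 7764 and the 11 from 295, so the 187 are a smaller share. The fits without WT noHS replicate 2 and without KO noHS replicate 1 tested 400 and 640 transcripts. Deviations of same-numbered libraries correlated at 0.00509 across transcripts. That value, from 4 libraries, cannot show whether same-numbered libraries share a batch, and the labels name no shared batch. The difference between unheated and HS was called for 0 transcripts, 1 with library size alone, 2 in DESeq2, and 0 to 1 with a library left out. The 41 that differed from recovery became 0 with DESeq2 size factors, 19 with library size alone, 11 scaled to all reads, 6 without the filter and 25 with a minimum count of 20, and 0 to 26 with a library left out. Other alternatives gave 57 of 537 with the 4 dominant transcripts kept in scaling and 55 of 344 with only unheated and recovery libraries. DESeq2 gave 34 of 295, either-strand counts 34 of 429, the choice by sense share 34 of 263 and the replicate block 31 of 295. The main 41 were out of 295, the 6 without the filter out of 10825 and the 25 out of 163. The 25 are thus a slightly larger share than the 41. Leaving out 1 library of a pair assumes that the lone library varies like the others. The sign of uc012hdk.1 turned to −0.57 with library size alone, −0.88 scaled to all reads, −0.18 without a filter, −0.038 with a minimum count of 20, −0.47 with all 12 libraries and −0.51 without WT noHS replicate 1; with a library left out it ran from −0.51 to 2.35. KO minus WT for the assigned share was 2.78 percentage points, 7.85 with sense counts and 1.78 to 3.78 with a library left out. For the share on the 4 dominant transcripts it was 5.71, 14.1 with either-strand counts and 5.34 to 6.07 with a library left out. Either-strand counts held few reads of uc009vew.1 (92 to 883) and uc012hdk.1 (563 to 1772). For both shares, the either-strand and sense values are therefore different quantities. The causes of the other changes were not tested. A filter on library sizes that hold the 4 transcripts, chosen after seeing the data, also gave 0 calls in unheated cells. With 2 libraries a side, library measures cannot give a p below 0.333.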
